A study of Arabidopsis thaliana with 8 samples.

Results

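The genes described here are those of the Arabidopsis thaliana mitochondrial genome. They were taken as the entries of the deposited gene table whose locus identifier starts with ATMG and which held at least 10 gene reads in at least 2 libraries. This gave 57 of 146 such entries, in a table of 33602 genes. They encode subunits of respiratory complexes I and IV and of ATP synthase, cytochrome c maturation factors, ribosomal proteins, ribosomal and transfer RNAs, or are open reading frames named only by their length. Near the minimum, ORF106F, ORF116 and ORFX entered with second-highest counts of 10, 11 and 11 reads, while ATP1 (7 reads), TRNS.3_1 (8 reads) and TRND_1 (9 reads) stayed below it. WT replicate 1, by far the deepest library, was among those that met the minimum for ORF106F, ORF116 and ORFX. Of the 89 entries below the minimum, 20 had 0 reads in every library.

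Plant mitochondria keep a small genome that is transcribed by phage-type RNA polymerases encoded in the nucleus. Its protein genes supply part of the electron transport chain, of the ATP synthase and of the mitochondrial ribosome, and the nucleus supplies the remaining subunits. Many of its transcripts carry group II introns, some spliced in trans, and are edited from C to U. Plant organelle transcripts mostly lack stable poly(A) tails, so the way a library is made sets how much of them it holds. The labels do not state an RNA selection step.

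RNA of whole seedlings, 7 days old and grown in 24 h light, was sequenced in 4 genotypes with 2 libraries each. These were the Columbia wild type (Col-0, WT), cob-6, sfr6-3 and cob-6sfr6-3, the double mutant. The cob-6 allele lies in COB (AT5G60920), which encodes a glycolipid-anchored protein of cellulose deposition, and sfr6-3 lies in MED16 (AT4G04920), a subunit of the Mediator complex that links transcription factors to RNA polymerase II. By its title, the study identified MED16 as a COBRA suppressor, so the comparison of the double mutant with cob-6 asks what sfr6-3 changes in that background.

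Depth was 324504432 gene reads in the library labelled WT replicate 1 and 24011199 to 37744914 in the other 7. Levels are given in counts-per-million (CPM) after TMM scaling of the library sizes, and a floor of 3 reads was worth 0.00928 CPM in the largest library and 0.0807 to 0.123 CPM in the rest, which covers counting error only. COB ranged from 66.9 to 82.5 CPM in the libraries with the cob-6 allele. In the others it was lowest in WT replicate 1, at 143 CPM, with 239 CPM in WT replicate 2 and 187 CPM in both sfr6-3 libraries. MED16 ranged from 7.48 to 10.8 CPM with the sfr6-3 allele. Among the libraries without that allele MED16 was again lowest in WT replicate 1, at 24.3 CPM, and ran from 29.3 to 39.1 CPM in the rest. WT replicate 1 also stood apart in its unique reads. Of 52 genes on the mitochondrial genome, 0 had fewer unique reads in it than in the other 7 libraries together, and 11 had exactly their sum, 8 of them because they had no unique read anywhere. Whether it shares reads with them was not tested, so the edgeR counts and medians of comparisons with WT and the allele differences are also given without it, while DESeq2 was not run without it. No label says that replicates came from separate cultures, and p-values then reflect the spread between these libraries alone, which may be technical.

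The identifiers and the positions in the deposited table disagreed for part of the set. The table placed 51 of the 57 entries on the mitochondrial genome and 6 on the chloroplast genome. In all, 11 ATMG entries were placed on the chloroplast genome, and all 11 had the same start and end as a chloroplast gene in RefSeq (TAIR10.1). Conversely, 11 entries with a chloroplast identifier (ATCG) were placed on the mitochondrial genome. Only 1 of these, ATCG00790 (RPL16_2, a large-subunit ribosomal protein), passed the read minimum, which gives 52 genes placed on the mitochondrial genome. Such exchanges touched genes that exist in both organelles, such as rpl16, rps4 and tRNA genes. The entry ATMG00080 (RPL16_1) decided the sum of the 57 entries, because it alone held 50.6% to 73.3% of their reads.

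RPL16_1 had CPM values of 1490 and 1340 in WT, of 1170 and 1440 in cob-6, of 1060 and 1680 in sfr6-3, and of 1700 and 1200 in the double mutant. The genotypes overlapped throughout. Its change in the double mutant against cob-6 was 0.15 ± 0.23 (log2, SE), with an adjusted p of 0.785 in edgeR. The other 5 chloroplast-placed entries were low: RPS4_2 (a small-subunit ribosomal protein) ran from 3.57 to 12.6 CPM, and the tRNA entries TRNS.1_1, TRNS.2_1, TRNP_1 and TRNW_1 stayed at or below 1.67 CPM. The levels and changes that follow are those of the 52 genes placed on the mitochondrial genome, and in the planned edgeR fit the counts of calls are the same for the 57 entries.

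The mitochondrial genome took a small part of every library, and that part was lowest in the single mutants and highest in the double mutant. It made up 0.0769% and 0.0744% of gene reads in WT, 0.0579% and 0.0582% in cob-6, 0.0591% and 0.0606% in sfr6-3, and 0.0882% and 0.114% in the double mutant. The cob-6 and sfr6-3 libraries lay below both WT libraries, both double mutant libraries lay above all others, and replicates differed most in the double mutant. The share in unique reads was close to this in each library, from 0.0571% in cob-6 replicate 1 to 0.115% in double mutant replicate 2. Over the 57 entries named by identifier both double mutant libraries were also highest, but the single mutants overlapped WT, with 0.226% and 0.2% in WT, 0.179% and 0.205% in cob-6, 0.171% and 0.231% in sfr6-3 and 0.256% and 0.233% in the double mutant. In bulk seedlings, fewer mitochondria-rich cells and less mitochondrial RNA per cell cannot be told apart. The chloroplast genome took 0.801% and 0.713% of gene reads in WT, 0.607% and 0.669% in cob-6, 0.568% and 0.837% in sfr6-3 and 0.858% and 0.71% in the double mutant, where the double mutant overlapped WT and sfr6-3. Of the cell type markers, the 6 genes of green tissue summed to 27800 to 32000 CPM in cob-6, 27900 to 36900 CPM in sfr6-3, 36300 to 36500 CPM in WT and 36900 to 39200 CPM in the double mutant. The 6 root genes summed to 136 to 148 CPM in cob-6, 165 to 169 CPM in WT, 194 to 221 CPM in the double mutant and 202 to 208 CPM in sfr6-3, and all 6 genes of each list were read in every library. The part of tissue make-up in the mitochondrial share was not tested.

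With 2 libraries a genotype, an exact permutation test of 2 against 2 cannot give a p below 0.333, so the share of pairs of genotypes is given as values, and a test with a spread pooled over genotypes was not run. Set by allele, 4 libraries against 4, the share of the mitochondrial genome was 1.17 times as high with sfr6-3 as without it, a log2 difference of 0.23 with an exact two-sided permutation p of 0.4. It was 1.13 times as high with cob-6, a log2 difference of 0.18 with an exact permutation p of 0.543. Each ratio averages over both backgrounds, although each single mutant lay below WT and the double mutant above both single mutants. The ratios and p-values by allele therefore cannot show these differences of opposite direction. Over the 57 entries the log2 differences were 0.12 for sfr6-3 and 0.08 for cob-6, with exact permutation p-values of 0.457 and 0.571. After Benjamini-Hochberg adjustment over the 6 allele comparisons computed, each of these 4 exact p-values was 0.856. On the mitochondrial genome the sfr6-3 difference was 0.04 without double mutant replicate 2, 0.36 without sfr6-3 replicate 1 and 0.30 without WT replicate 1. Without the rRNA genes and ORF107A it was 0.40, with an exact permutation p of 0.0571. The cob-6 difference was 0.31 without either cob-6 library and 0.25 without WT replicate 1, and without the rRNA genes and ORF107A it was 0.07. Without double mutant replicate 2 the cob-6 difference of the mitochondrial genome turned to -0.01, and over the 57 entries it turned to -0.01 without sfr6-3 replicate 1 and to -0.0047 without double mutant replicate 1. Over the 57 entries the sfr6-3 difference ran from 0.05 without double mutant replicate 1 to 0.25 without sfr6-3 replicate 1, where the exact permutation p was 0.0571. Without WT replicate 1 the differences over the 57 entries were 0.18 for sfr6-3 and 0.12 for cob-6.

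**Figure D1:**
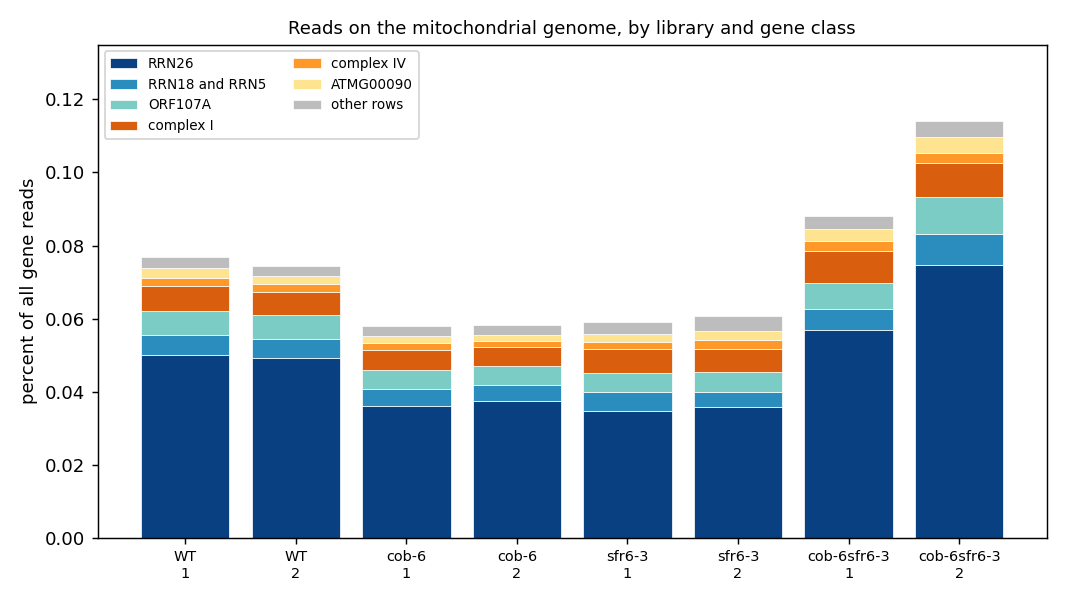
Percent of all gene reads placed on the mitochondrial genome in each of the 8 libraries (genotype and replicate number below each bar), stacked by gene class. The 4 single mutant bars end between 0.0579% and 0.0606%, WT at 0.0769% and 0.0744%, and the double mutant at 0.0882% and 0.114%, with RRN26 the largest block in each.

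Ribosomal RNA dominated these reads. RRN26, the large-subunit ribosomal RNA (ATMG00020, chrM:8848-11415 in the deposited table), made up 58.7% to 66.1% of mitochondrial-genome reads, and the 3 rRNA genes together 66.0% to 73.2%. RRN26 had CPM values of 502 and 523 in WT, of 350 and 368 in cob-6, of 331 and 357 in sfr6-3, and of 580 and 759 in the double mutant. No library of the double mutant overlapped one of another genotype, and the single mutants overlapped only each other. RRN26 rose in the double mutant against cob-6 by 0.90 ± 0.16 (log2, SE), 1.86-fold, with an adjusted p of 0.0193 in edgeR. That call was lost without double mutant replicate 2 (0.69, adjusted p = 0.0916) and without cob-6 replicate 1 (0.86, adjusted p = 0.192) or cob-6 replicate 2 (0.93, adjusted p = 0.159), where the lone library left is assumed to vary like the other genotypes.

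Against sfr6-3 the change of RRN26 was 0.96 ± 0.16, with an adjusted p of 0.0527, just above the threshold. It passed in DESeq2 and, in edgeR, in unique reads (adjusted p = 0.0388) and without WT replicate 1, WT replicate 2 or double mutant replicate 1 (adjusted p = 0.0212, 0.018 and 0.0236), and its range without 1 library was 0.018 to 0.246. The single mutants differed from WT by -0.51 ± 0.16 (cob-6, adjusted p = 0.564) and -0.58 ± 0.16 (sfr6-3, adjusted p = 0.373), and neither was called. Without WT replicate 1 these values were -0.54 and -0.61 (adjusted p = 0.352 and 0.262). Scaling to the mitochondrial genome takes out most of any change in RRN26, which made up 58.7% to 66.1% of those reads. A value under that scaling is therefore no separate check on RRN26. The interaction, taken as the effect of the cob-6 allele in sfr6-3 plants less its effect in WT, was 1.47 ± 0.22 with an adjusted p of 0.0477. It was not called in unique reads (1.48, adjusted p = 0.0637) or without WT replicate 1 (1.5, adjusted p = 0.0689), and it was 0.88 (adjusted p = 0.165) when scaled to the reads of the 57 entries and 0.19 (adjusted p = 0.518) when scaled to the mitochondrial genome. It was also lost without double mutant replicate 2 (1.27, adjusted p = 0.167), without cob-6 replicate 1 or 2 (adjusted p = 0.38 and 0.232) and without sfr6-3 replicate 1 or 2 (adjusted p = 0.261 and 0.167).

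RRN18, the small-subunit ribosomal RNA (ATMG01390, chrM:361350-363284), had CPM values of 55.6 and 56.3 in WT, of 42.6 and 44.5 in cob-6, of 50.2 and 41.2 in sfr6-3, and of 60.7 and 86.2 in the double mutant. As for RRN26, the single mutants were lowest and the double mutant highest, with a difference of 0.76 ± 0.18 against cob-6 that was not called (adjusted p = 0.0626 in edgeR) and was -0.12 when scaled to the mitochondrial genome. RRN5, the 5S ribosomal RNA, held at most 0.585 CPM in any library and was too low to be tested.

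ORF107A (ATMG00030, chrM:11918-12241) is an open reading frame next to RRN26 that held 7.99% to 9.03% of the mitochondrial-genome reads. It had CPM values of 65.4 and 68.8 in WT, of 50.6 and 50.7 in cob-6, of 49.1 and 54.0 in sfr6-3, and of 71.9 and 102 in the double mutant. These levels kept the order of RRN26, with the single mutants below WT and the double mutant above it. ORF107A rose against cob-6 by 0.78 ± 0.17 (adjusted p = 0.0463 in edgeR), but was at -0.09 when scaled to the mitochondrial genome. By the deposited positions, 502 bases lie between ORF107A and RRN26, which is 2568 bases long. In RefSeq rrn26 is 3169 bases long and holds 185 of the 324 bases of ORF107A on the opposite strand. Without strand-specific counting, which the sources used here do not give, reads of ORF107A and of rrn26 cannot be told apart. The call of ORF107A was lost without double mutant replicate 2 (0.51, adjusted p = 0.174) and without either library of cob-6 (0.78, adjusted p = 0.295 and 0.28) or of sfr6-3 (0.78, adjusted p = 0.0681 and 0.0703).

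Levels of different genes were compared as CPM of the mitochondrial-genome reads per kilobase of gene span, averaged over the 8 libraries. On this scale ORF107A was at 268000 and RRN26 at 246000. RRN18 followed at 38500, then COX2 at 12300, ATMG00090 at 10800, NAD3 at 8440, ATP9 at 8390 and RPL2 at 7120. All other genes were at or below 5500. This scale counts intron reads, which were most of the reads of COX2, ATMG00090 and RPL2. The order changed in CPM of mitochondrial-genome exon reads per kilobase of exon, which rRNA genes lack. There ORF107A stayed highest at 1970000, and NAD3 was at 62300 and ATP9 at 60700. COX2 was at 24800, ATMG00090 at 14400 and RPL2 at 4810. In the deposited RPKM (exon reads scaled to exon length and library depth by the authors), ORF107A ran from 159 to 309 and NAD3 from 1.85 to 16.2, while COX2 ran from 1.32 to 3.79. The 7 entries with no listed exon, which are the rRNA and tRNA genes, had an RPKM of 0 in every library. RRN26 and RRN18 accordingly had a fold of 1 and a p-value of 1 in the authors' deposited table of the double mutant against cob-6. ORF107A had a fold of 1.71 and a p-value of 2.64e-06 in that table.

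Complex I (NADH dehydrogenase, the entry of electrons into the respiratory chain) had 11 genes among the 52, some of them parts of genes joined by trans-splicing. Their summed CPM was 67.8 and 67.1 in WT, 54.0 and 52.9 in cob-6, 61.4 and 63.2 in sfr6-3, and 88.7 and 96.2 in the double mutant. The 4 genotypes did not overlap in this sum. All 11 were tested, and all 11 had a log2 change above 0 in the double mutant against cob-6, from 0.27 (NAD1C) to 2.78 (NAD3), with a median of 0.94, whereas scaled to the mitochondrial genome 7 of 11 were above 0 with a median of 0.07. Only NAD3 passed the threshold in edgeR. NAD2B, with 3 exons of subunit 2, had CPM values of 14.8 and 18.3 in WT, of 13.6 and 9.36 in cob-6, of 12.5 and 12.8 in sfr6-3, and of 16.8 and 24.9 in the double mutant. Its difference from cob-6 was 0.86 ± 0.24 (adjusted p = 0.11), and that of NAD4, another core subunit, was 0.51 ± 0.19 (adjusted p = 0.214).

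NAD3 (ATMG00990, chrM:260647-261006) encodes subunit 3 of complex I. It had CPM values of 2.71 and 2.92 in WT, of 0.653 and 0.657 in cob-6, of 0.937 and 2.32 in sfr6-3, and of 5.95 and 3.09 in the double mutant. It was lowest in cob-6, where its libraries held 17 and 16 reads, and highest in the double mutant, where they held 153 and 115. NAD3 rose by 2.78 ± 0.57 against cob-6, 6.86-fold, with an adjusted p of 0.0391 in edgeR. Its call was lost without either cob-6 library (2.78, adjusted p = 0.262 and 0.24) and without double mutant replicate 1 (2.24, adjusted p = 0.0535). NAD3 had a fold of 6.50 and a p-value of 2.76e-05 in the authors' deposited table, and it is the only one of the 57 entries in the authors' deposited short list from that comparison.

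Only 11.1% of the NAD3 reads outside WT replicate 1 were unique. A large copy of the mitochondrial genome lies in chromosome 2 of Columbia, and there AT2G07751, which RefSeq names as chain 3 of the NADH oxidoreductase, had 0.0% unique reads. It held 27 reads in WT replicate 2, 9 and 25 in cob-6, 24 and 10 in sfr6-3, and 3 and 8 in the double mutant. Added to NAD3, both genes together had CPM values of 2.73 and 4.02 in WT, of 0.999 and 1.68 in cob-6, of 1.87 and 2.69 in sfr6-3, and of 6.06 and 3.31 in the double mutant. In this sum both double mutant libraries stayed above both cob-6 libraries, but they overlapped WT. In unique reads NAD3 was at 0 in both cob-6 libraries and sfr6-3 replicate 1, and it was too low to be tested.

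Other mitochondrial genes also had a chromosome 2 counterpart. In 3 of 8 gene pairs named alike on both, the chromosome 2 member held more reads than the mitochondrial one. ATP1, the alpha subunit of ATP synthase, held 3 to 9 reads per library at ATMG01190, none of the 40 outside WT replicate 1 unique, and so was below the read minimum. Its chromosome 2 counterpart AT2G07698 held 227 to 722 reads in the same libraries, of which 20.9% were unique. AT2G07698 had CPM values of 12.1 and 14.1 in WT, of 9.49 and 9.32 in cob-6, of 11.6 and 11.3 in sfr6-3, and of 16.6 and 19.4 in the double mutant. Its cob-6 libraries were lowest and its double mutant libraries highest, and it rose against cob-6 by 0.94 ± 0.19 (adjusted p = 0.0391 in edgeR). That call was lost in unique reads (0.78, adjusted p = 0.363), without either library of cob-6 (adjusted p = 0.261 and 0.256) or of sfr6-3 (adjusted p = 0.0645 and 0.0652) and without double mutant replicate 2 (0.82, adjusted p = 0.111). COB_2 (ATMG00220), which encodes mitochondrial cytochrome b and has no relation to the COBRA gene, held at most 5 reads in a library. Its chromosome 2 counterpart AT2G07727 held 288 reads outside WT replicate 1, 64.2% of them unique, with a difference of 0.10 from cob-6 to the double mutant (adjusted p = 0.949). These pairs were chosen after their values were seen.

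Complex IV (cytochrome c oxidase, the last enzyme of the chain) had 3 genes, COX1, COX2 and COX3_2, its catalytic core. COX2 (ATMG00160, chrM:40502-42628) had CPM values of 19.3 and 19.1 in WT, of 14.6 and 12.6 in cob-6, of 18.4 and 19.2 in sfr6-3, and of 23.6 and 25.2 in the double mutant. The cob-6 libraries were lowest and the double mutant libraries highest, while sfr6-3 overlapped WT. COX2 rose in the double mutant against cob-6 by 0.84 ± 0.17, 1.79-fold, with an adjusted p of 0.0319 in edgeR, but was at -0.0048 when scaled to the mitochondrial genome. The call was lost without double mutant replicate 2 (0.79, adjusted p = 0.0853), without either cob-6 library (0.96 and 0.74, adjusted p = 0.144 and 0.291) and without either sfr6-3 library (0.84, adjusted p = 0.0541 and 0.0555). It was also lost in exon reads (1.32, adjusted p = 0.201), and in the authors' deposited table COX2 had a fold of 2.38 and a p-value of 0.344. COX1 ran from 1.13 to 3.73 CPM and COX3_2 from 0.565 to 1.70 CPM, with changes of 0.32 and 0.25 that were not called.

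ATMG00090 (chrM:25482-28733, no symbol in the table) had CPM values of 26.7 and 25.6 in WT, of 19.8 and 15.7 in cob-6, of 20.4 and 24.6 in sfr6-3, and of 31.9 and 44.6 in the double mutant. Both double mutant libraries lay above all others and both cob-6 libraries below all others. ATMG00090 rose against cob-6 by 1.11 ± 0.20, 2.16-fold, with an adjusted p of 0.0212 in edgeR. It shares 134 bases with the neighbouring RPL16_2. Its call was lost without double mutant replicate 2 (0.85, adjusted p = 0.0846) and without cob-6 replicate 1 (1.28, adjusted p = 0.0745) or replicate 2 (0.95, adjusted p = 0.207). It was also lost in exon reads (1.17, adjusted p = 0.227), and 85.4% to 92.8% of its reads lay in its intron. In the authors' deposited table ATMG00090 had a fold of 2.09 and a p-value of 0.688.

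**Figure D2:**
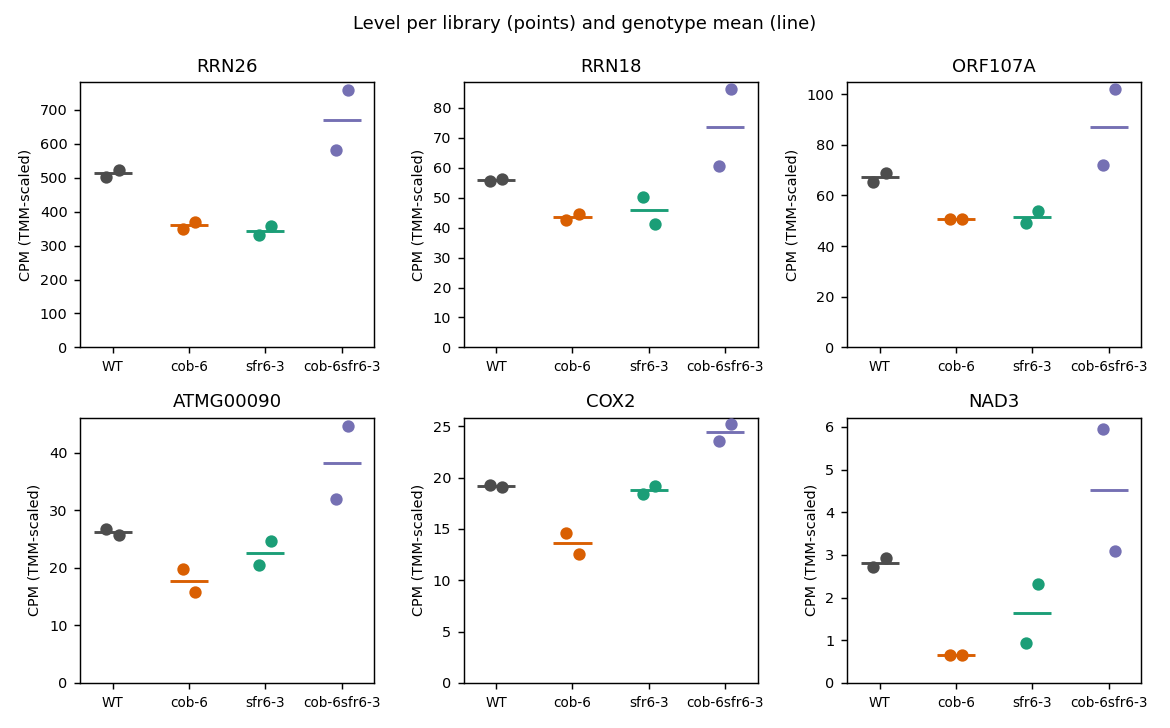
TMM-scaled CPM of 6 mitochondrial genes in each library (points) with the genotype mean (line), each axis starting at 0. In RRN26, RRN18, ORF107A, ATMG00090, COX2 and NAD3 both double mutant libraries lie above both cob-6 libraries, and double mutant replicate 2 is the higher one except in NAD3.

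The genes on the mitochondrial genome with a ribosomal protein symbol and enough reads were RPL2, RPL16_2 and RPSL2, while RPS7_2 and RPL5_2 held at most 5 reads in a library. ATMG00090 has no symbol and was put in no functional class, so this list may be incomplete. RPL2, a protein of the large subunit, had CPM values of 13.7 and 9.94 in WT, of 9.64 and 8.66 in cob-6, of 10.2 and 16.9 in sfr6-3, and of 15.1 and 26.3 in the double mutant. Its change against cob-6 was 1.18 ± 0.30 with an adjusted p of 0.0857, so it was not called in edgeR. The difference was 1.53 ± 0.62 for RPL16_2 (adjusted p = 0.247) and, for RPSL2, 1.54 ± 0.95 (adjusted p = 0.441). RPSL2 had no unique read in any library.

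The 5 ATP synthase genes summed to 4.8 to 7.11 CPM in the 8 libraries, with the double mutant at 6.76 and 6.30 CPM and sfr6-3 at 6.67 and 7.11 CPM. Their changes against cob-6 ran from -1.18 (ATP6-1_2) to 1.24 (YMF19_2) around a median of 0.10 (-0.65 when scaled to the mitochondrial genome), and 0 of 5 were called. ATP9, the ring subunit of the rotor, was the highest of them per kilobase, ran from 2.11 to 3.93 CPM, with a difference of 0.50 ± 0.40 (adjusted p = 0.56). The cytochrome c maturation genes CCB206 and CCB452 differed by 0.61 and -1.57, neither called. Cytochrome c maturation is the attachment of haem to cytochrome c in the intermembrane space. ORFX, listed under protein transport, stayed at or below 0.69 CPM and was not tested.

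Among the 23 open reading frames, none but ORF107A exceeded 3.19 CPM in any library. The other 22 summed to 8.68 to 9.50 CPM in WT, 7.80 to 8.21 CPM in cob-6, 10.2 to 10.7 CPM in sfr6-3 and 8.66 to 12.1 CPM in the double mutant. Next by unique reads were ORF111D (254 unique reads outside WT replicate 1), ORF275 (244), ORF114 (221) and ORF149 (152), against 12580 for ORF107A. Their changes in the double mutant against cob-6 were 0.46, 0.70, -0.26 and -0.53, and none of these 4 was called.

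Of the 57 entries 42 could be tested among 21384 genes, and of the 52 genes on the mitochondrial genome 37. Most calls were in the double mutant against cob-6. There 5 members rose (RRN26, ATMG00090, COX2, NAD3 and ORF107A) and 0 fell, beside 1.36% of all tested genes called in either direction and 0.468% called higher. These 5 were 5 of 37 tested genes on the mitochondrial genome, 30 of which had a change above 0. Their median change was 0.76, where the median of all tested genes was 0.01. At an unadjusted p under 0.05 there were 13 higher and 0 lower, beside 16.7% of all genes in either direction. DESeq2 called 8 members, beside 965 of 22555 genes in either direction. No member was called without cob-6 replicate 1 or 2, 1 without double mutant replicate 2 and 3 without sfr6-3 replicate 1 or 2, while all 5 kept their call without WT replicate 1.

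In the other comparisons at most 1 member was called in edgeR. In cob-6 against WT edgeR called 0, beside 0.0889% of all genes, and DESeq2 0. At an unadjusted p under 0.05 there were 5 lower and 0 higher, beside 5.26% of all genes. The median of the 37 was -0.29, and without WT replicate 1 edgeR again called 0, with a median of -0.28. In sfr6-3 against WT edgeR called 0, beside 0.131% of all genes, with 2 lower at an unadjusted p under 0.05 (5.59% of all genes), a median of 0.01 and 1 call in DESeq2, RRN26 at -0.58. Without WT replicate 1 edgeR again called 0 there, with a median of 0.10. In the double mutant against sfr6-3 edgeR called 0, beside 0.0748% of all genes, with 7 higher and 1 lower at an unadjusted p under 0.05 (14.4% of all genes), a median of 0.50 and 4 calls in DESeq2. There edgeR called 1 without either WT library and 4 without double mutant replicate 1. In the double mutant against WT edgeR called 0, beside 0.846% of all genes, with 7 higher and 1 lower at an unadjusted p under 0.05 (14.5% of all genes), a median of 0.40 and 0 calls in DESeq2. Without WT replicate 1 it had 1 call in edgeR and a median of 0.55. In the interaction edgeR called 1, RRN26, beside 0.0514% of all genes, with 10 higher and 0 lower at an unadjusted p under 0.05 (9.08% of all genes), a median of 0.78 and 5 calls in DESeq2, and with 2 calls without double mutant replicate 1. Without WT replicate 1 the interaction had 0 calls in edgeR and a median of 0.55. Over all genes DESeq2 called 127 of 19013 in cob-6 against WT and 178 of 20531 in sfr6-3 against WT. For the double mutant it called 457 of 22555 against sfr6-3 and 722 of 21543 against WT, and in the interaction 79 of 23061. These comparisons share libraries, so they are not separate observations.

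**Figure D3:**
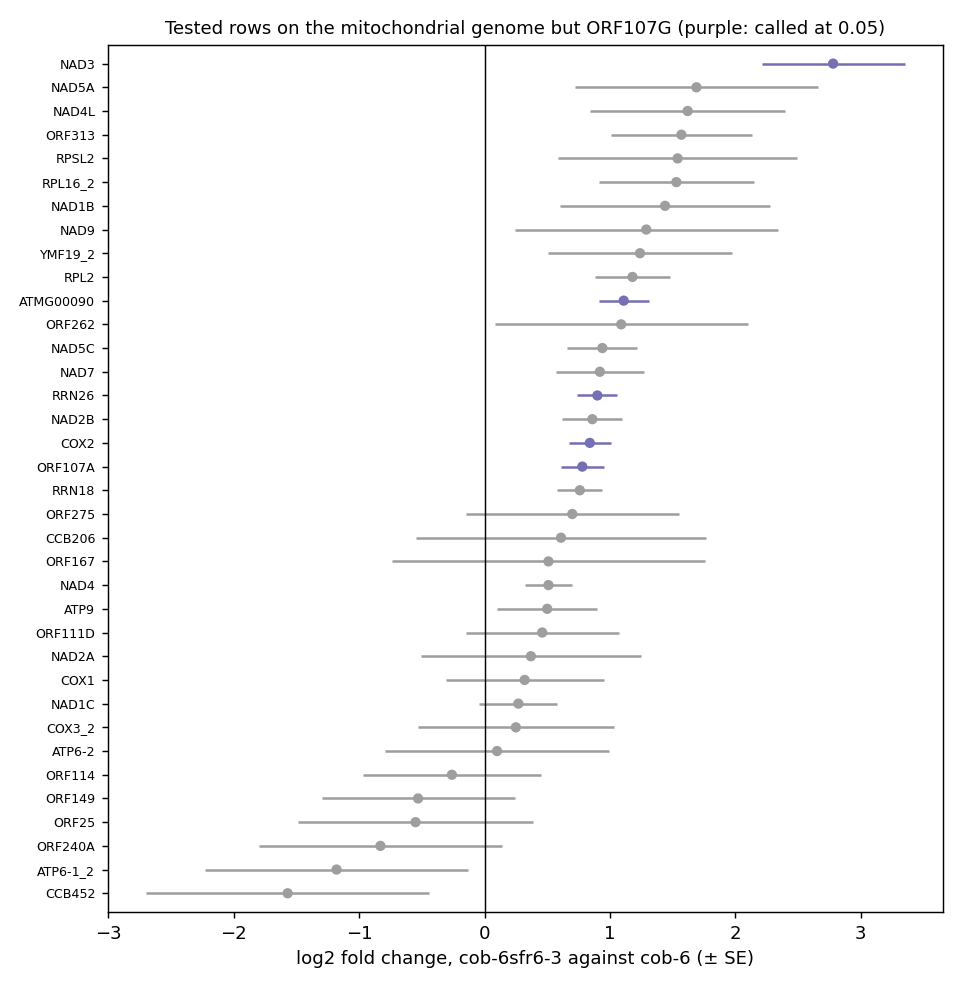
Log2 fold change with standard error of the tested genes on the mitochondrial genome in cob-6sfr6-3 against cob-6, with called genes in purple. ORF107G, whose fitted value is far off the axis because both double mutant libraries are at 0, is not drawn. NAD3 stands at 2.78, and RRN26, COX2 and ORF107A lie between 0.78 and 0.90 with the shortest error bars. Scaled to the mitochondrial genome instead, RRN26, COX2 and ORF107A lie at 0.03, -0.0048 and -0.09.

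Within the mitochondrial reads sfr6-3 stood apart from the other genotypes in the shares of several classes, which are given as values without a test. The shares are parts of the same total, so a lower rRNA share by itself raises the shares of other classes, and they are not separate differences. The rRNA share was 72.3% and 73.2% in WT, 70.2% and 72.0% in cob-6, 67.7% and 66.0% in sfr6-3 and 71.2% and 72.9% in the double mutant, so sfr6-3 was lowest. Complex I made up 8.78% and 8.48% in WT, 9.64% and 9.22% in cob-6, 10.9% and 10.5% in sfr6-3 and 9.85% and 8.30% in the double mutant, so sfr6-3 was highest. Complex IV made up 3.58% and 3.96% in sfr6-3 and 2.32% to 3.21% in the other 6 libraries, and ATP synthase 1.18% in both sfr6-3 libraries and 0.543% to 0.94% in the other 6. In CPM, rRNA was 381 and 398 in sfr6-3, below WT (558 and 579) and overlapping cob-6 (393 and 412). Complex IV, at 20.2 and 23.9 CPM in sfr6-3, overlapped WT (22.3 and 22.6) and lay above cob-6 (17.3 and 15.6). Complex I in CPM was lower in sfr6-3 than in WT and higher than in cob-6. ATP synthase in CPM was higher in sfr6-3 than in WT and cob-6 but overlapped the double mutant. With counts scaled to the mitochondrial-genome reads, which moved the median of all genes to -0.83 in the double mutant against cob-6, RRN26 was at 0.03, COX2 at -0.0048, ORF107A at -0.09 and RRN18 at -0.12, none of these called. ATMG00090 was at 0.24 (adjusted p = 0.31). NAD3, at 1.99 (adjusted p = 0.0123), was the only member called higher under that scaling, where 13565 of all 21384 tested genes were called in either direction. Without the rRNA genes and ORF107A, the mitochondrial genome took 0.0148% and 0.0134% of gene reads in WT, 0.012% and 0.0112% in cob-6, 0.0139% and 0.0152% in sfr6-3 and 0.0184% and 0.021% in the double mutant. In this remainder cob-6 was lowest and the double mutant highest, while sfr6-3 overlapped WT.

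The uniqueness of reads split the genes. Outside WT replicate 1, 27 of the 52 had at least 95% unique reads, 16 had under 50%, 11 under 10% and 8 had no unique read. RRN26, ORF107A and RRN18 were at 99.9% or above, ATMG00090 at 99.3% and COX2 at 98.4%. NAD7 was at 12.2%, NAD4 at 55.3% and RPL2 at 65.1%. RPSL2, YMF19_2, CCB452 and NAD2A were among the 8 with no unique read. A test on unique reads called 4 of the 5 members in the double mutant against cob-6, beside 331 of all 20955 genes tested there. RRN26 was at 0.90, ATMG00090 at 1.11, COX2 at 0.85 and ORF107A at 0.78, and NAD3 was not tested there.

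**Figure D4:**
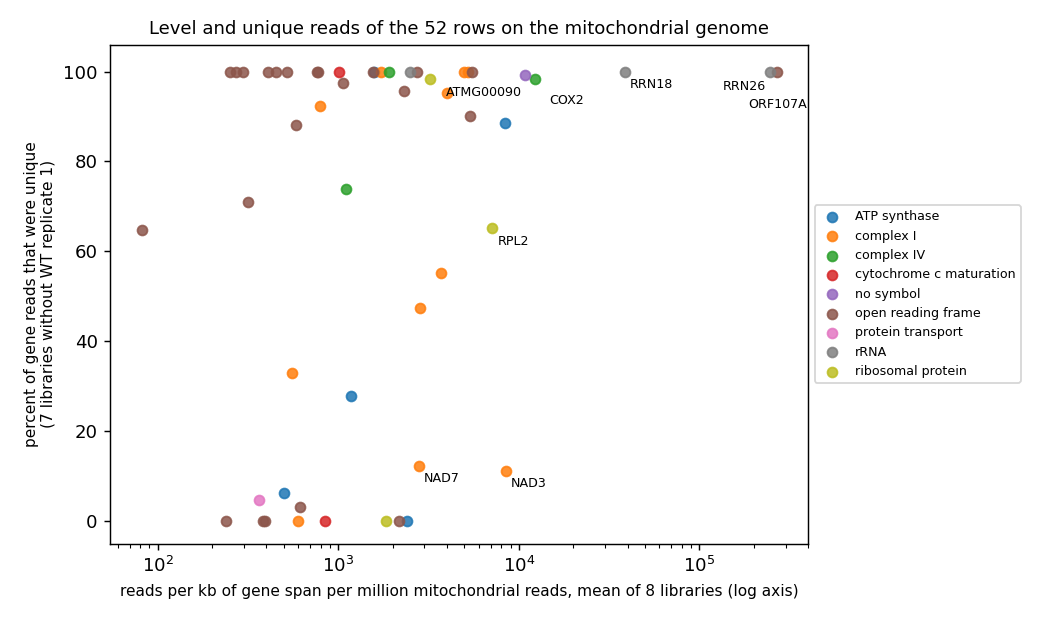
Percent of gene reads that were unique in the 7 libraries other than WT replicate 1, against CPM of the mitochondrial-genome reads per kilobase of gene span on a log axis, for the 52 genes on the mitochondrial genome. The most abundant genes by this measure, from COX2 upward, are at 98.4% or above, while NAD3 is at 11.1% and NAD7 at 12.2%.

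Most reads of the intron-containing genes lay in introns. The 12 genes with more than 1 exon in the table had 92.6% and 91.4% of their reads in introns in WT, 92.6% and 91.4% in cob-6, 90.2% and 90.5% in sfr6-3 and 91.2% and 95% in the double mutant, while introns take 70.9% of their 39927 bases. In 9 of the 12 the intron share of reads exceeded the intron share of the gene's span in every library. The exceptions were NAD2A, NAD1B and NAD1C, with 131, 143 and 1433 reads outside WT replicate 1. COX2 had 87.1% to 93.2% of its reads in its intron, which is 63.2% of its span, and RPL2 had 93.1% to 99.1%, against 59.6% of its span. Reads spanning 2 exons numbered 157 in WT replicate 1 and 3 to 22 in each other library. For comparison, the chloroplast-placed RPL16_1 had 82.0% to 86.8% of its reads in its intron. Among the 57 entries, the planned intron share took those with more than 1 exon or with intron reads in every library. These included RPL16_1 and rRNA genes, which list no exon, so that rRNA reads counted as intron reads. The log2 difference by allele was 0.01 for each allele, with exact permutation p-values of 0.943 for sfr6-3 and 0.857 for cob-6 (0.943 for each after adjustment over the 6). Without double mutant replicate 2 both differences turned to -0.01, and without WT replicate 1 they were 0.01 for sfr6-3 and 0.02 for cob-6. Without the rRNA genes the difference was again 0.01 for each allele, with exact permutation p-values of 0.8 for sfr6-3 and 0.829 for cob-6. Over the 12 mitochondrial genes alone the difference was -0.01 for sfr6-3 and 0.02 for cob-6, with exact permutation p-values of 0.857 and 0.286.

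**Figure D5:**
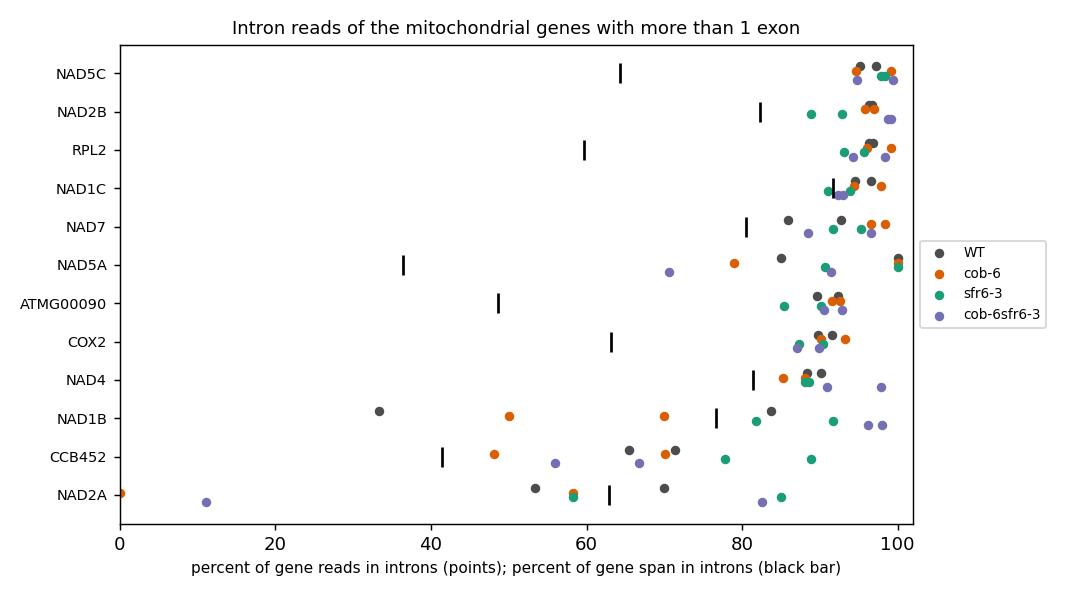
Percent of gene reads in introns in each library (points, coloured by genotype) for the 12 mitochondrial genes with more than 1 exon, with the percent of the gene's span in introns as a black bar. In 9 genes all 8 points lie to the right of the bar, and the widest spread is in NAD2A, NAD1B and CCB452, with 131, 143 and 256 reads outside WT replicate 1.

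The nuclear genes that work with these products were taken as lists. Of 55 nuclear genes for the respiratory complexes, cytochrome c and ATP synthase, 54 were tested and 0 were called in any of the 6 comparisons in edgeR, where 0.0514% to 1.36% of all genes were called. In the double mutant against cob-6, 6 of them were higher and 3 lower at an unadjusted p under 0.05, beside 16.7% of all genes, so their count was near that of all genes, and their median change was 0.12. AT4G37830, a complex IV gene, had CPM values of 102 and 100 in WT, of 89.9 and 77.8 in cob-6, of 87.6 and 96.1 in sfr6-3, and of 139 and 119 in the double mutant. Its change against cob-6 was 0.62 ± 0.14 (adjusted p = 0.0608), and that of AT1G80230, also of complex IV, was 0.54 ± 0.15 (adjusted p = 0.112). SDH5 of complex II was at 0.43 ± 0.14 (adjusted p = 0.162) and SDH1-2, its flavoprotein subunit, at 0.73 ± 0.26 (adjusted p = 0.194). In complex III AT3G27240 was at -0.43 ± 0.17 (adjusted p = 0.236) and AT4G32470 at 0.46 ± 0.17 (adjusted p = 0.204). GAMMA CAL1 of complex I was at 0.26 ± 0.13 (adjusted p = 0.354) and AT5G08690 of ATP synthase at 0.24 ± 0.15 (adjusted p = 0.43).

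In the double mutant against cob-6, where 1.36% of all genes were called and 0.468% called higher, 14 of 14 genes for mitochondrial ribosomal proteins were tested and 0 called. MRPL11 was at 0.47 ± 0.18 (adjusted p = 0.227) and AT5G09770 at -0.54 ± 0.19 (adjusted p = 0.191). Of 35 genes for mitochondrial transcription and RNA processing 34 were tested and 0 called, with 3 higher and 3 lower at an unadjusted p under 0.05 and a median change of 0.06. MORF1, an RNA editing factor, was at 0.59 ± 0.19 (adjusted p = 0.16), and PMH2, an RNA helicase of intron splicing, at 0.38 ± 0.16 (adjusted p = 0.26). Of 21 genes for alternative respiration and mitochondrial retrograde signalling, the path by which the organelle reports its state to the nucleus, 16 were tested and 1, UGT74E2, was called. At an unadjusted p under 0.05 in edgeR, 6 of the 16 were higher and 0 lower, beside 16.7% of all genes in either direction. Their median change was 0.45, where that of all genes was 0.01. The list was chosen with earlier results of these data known, so the choice may have shaped these values. UGT74E2, an auxin glucosyltransferase, had CPM values of 9.29 and 9.65 in WT, of 6.88 and 6.28 in cob-6, of 14.3 and 12.6 in sfr6-3, and of 12.7 and 15.8 in the double mutant. It rose against cob-6 by 1.12 ± 0.21 (adjusted p = 0.0285 in edgeR). Its cob-6 libraries were lowest and its sfr6-3 libraries overlapped the double mutant. That call was lost without double mutant replicate 2 (0.95, adjusted p = 0.0917) and without either cob-6 library (adjusted p = 0.17 and 0.229).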

How the data were processed

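Per the file headers, the deposited workbook gives counts of total, unique, exon, intron and exon-exon reads for each gene in each library. The RPKM values the authors deposited were used only to describe levels. For the double mutant against cob-6, the authors deposited a p-value and a signed fold, which is treated as a score. The build, the strand setting and the programs for alignment and counting were not given in the sources used here, and 0 columns of samples of other series were present. Positions are those of the deposited table, counted from 1.

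Members and gene lists were chosen with earlier results of these data known. Members of known function could all be named, open reading frames only if called or among the 5 with the most unique reads, and nuclear genes only if called or among the 2 with the smallest p of a list; ORF106F, ORF116 and ORF107G are named outside this rule, after their values were seen. Levels between genes were ranked by gene span and total reads instead of exon length as planned, because rRNA genes list no exon. Values by exon length are given beside them for some genes.

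Total gene reads were tested with edgeR 4.0.16 in R 4.3.3 (quasi-likelihood, TMM, filterByExpr, 1 mean per genotype over all 8 libraries, 4 residual degrees of freedom). Each adjusted p is edgeR's after Benjamini-Hochberg adjustment over the 21384 genes tested in a contrast, with a call at 0.05. The fit was tested on simulated data. DESeq2 1.42.0, other scalings, filters, read classes, the replicate block and leaving out each library were alternatives; counting, scaling and intron shares by position on the mitochondrial genome were chosen after seeing the data. Replicate numbers did not pair the libraries, since deviations of same-numbered libraries correlated at -0.0743 to 0.0494. No sequence is reported here.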

Additional observations from a re-analysis of the deposited data

Results flagged for a closer look

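The change of RRN26 from sfr6-3 to the double mutant differed from its change from WT to cob-6 by 1.47 ± 0.22 on the log2 scale (adjusted p = 0.0477 in edgeR, interaction term). It was listed because the estimated effect of the cob-6 allele differed between plants with and without sfr6-3: -0.51 without it and 0.96 with it. Neither of these changes was itself called (adjusted p = 0.564 and 0.0527 in edgeR). The interaction was not called in unique reads (adjusted p = 0.0637) or with the replicate block (adjusted p = 0.0654).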

How the results depend on the processing

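With double mutant against cob-6, 5 of the 57 entries were called as planned. The count was 8 with DESeq2's test, 10 with no filter on low counts, 2 in exon reads (NAD3 and ORF107A), 1 when scaled to the reads of the 57 entries or of the mitochondrial genome, and 0 to 7 when 1 library was left out. It was 0 without cob-6 replicate 1 or 2, 1 without double mutant replicate 2 and 3 without sfr6-3 replicate 1 or 2. The double mutant against sfr6-3 had 0 calls as planned, 4 with DESeq2, 5 without the filter, 3 scaled to the mitochondrial genome (both of those placed on it lower, not higher), 1 in unique reads, 1 in unique reads with the other 7 libraries taken off WT replicate 1, and 0 to 4 with 1 library left out. The interaction had 1 call as planned, 5 with DESeq2, 6 without the filter, 4 scaled to the mitochondrial genome (of those placed on it 1 higher and 2 lower, without RRN26, which was at 0.19), 0 scaled to the 57 entries, 0 in exon or unique reads, and 0 to 2 with 1 library left out. The double mutant against WT had 0 calls, 2 without the filter and 0 to 1 with 1 library left out, cob-6 against WT 0, with 1 without the filter, and sfr6-3 against WT 0, with 1 in DESeq2. The replicate block gave 2 calls against cob-6 (RRN26 at 0.89 and ATMG00090 at 1.10) and 0 in the interaction (RRN26 at 1.47, adjusted p = 0.0654), but the numbers do not pair the libraries. Scaled to the mitochondrial genome, changes against cob-6 turned to -0.0048 for COX2, -0.09 for ORF107A and -0.12 for RRN18, and RRN26 against WT to -0.01, where the scaling itself takes out a change shared by these genes. For the allele differences, leaving out 1 library gave 0.05 to 0.25 for sfr6-3 and -0.01 to 0.17 for cob-6 over the 57 entries, 0.04 to 0.36 and -0.01 to 0.31 over the mitochondrial genome (sfr6-3 at 0.40 without the rRNA genes and ORF107A), and -0.01 to 0.02 in intron share for either allele, and intron share for sfr6-3 was -0.01 over genes with more than 1 exon. The number of all genes called also changed with the setting. Without the filter it was 1314 of 26097 for the double mutant against cob-6, 833 against sfr6-3, 1185 against WT and 224 in the interaction. For cob-6 against WT it was 356 without the filter. Scaled to the mitochondrial genome it was 13565 of 21384 for the double mutant against cob-6, 12888 against sfr6-3 and 14697 in the interaction. The cause was not tested unless named. Genes under 1 CPM had few reads, so a difference in them could go uncalled at this depth.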
